A study of Homo sapiens with 3 samples.

Results

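The urea cycle genes are the 7 genes CPS1, OTC, ASS1, ASL, ARG1, ARG2 and NAGS, chosen by name among 39320 gene rows on the assembled chromosomes of the deposited tables. Each of the 7 had 1 row with the same coordinates in every table. The RNA-seq data comprise 3 replicate libraries labelled HepG2, a long-established cell line from a human liver tumour, with the genotype given as WT and the cell type as liver cancer cells. The cells were grown in DMEM with fetal bovine serum, no treatment is named, and polyadenylated RNA was the labelled molecule. There is 1 condition, so nothing could be compared between conditions, and nothing in the labels says whether the replicates came from separate cultures. The spread given below is the spread between these libraries, which may be technical.

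The urea cycle turns ammonia, which is toxic, into urea, which is excreted. It starts in the mitochondrion, where carbamoyl phosphate is made and joined to ornithine, and it ends in the cytosol, where arginine is split into urea and ornithine. The whole cycle is known as a task of hepatocytes, while single enzymes of it serve arginine synthesis and other routes in many other cells.

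The 3 tables give a mean read depth over each gene (coverage), FPKM and TPM. TPM is a level per transcript length that is scaled to the same total in every library, so it allows genes to be compared within a library. Without read counts in the tables, depth is unknown and counting error cannot be stated. As a relative measure of depth, the top ratio of coverage to FPKM was 13.3, 12.8 and 11.5 in replicates 1, 2 and 3. The labelled cell type was checked against 18 genes for proteins that hepatocytes secrete. Of all 18739 protein-coding rows, 7295 were below 1 TPM in every library and 20.0% were listed at 0 in every library. Of the 18 genes, 16 were below 1 TPM in every library and 11 were listed at 0 in every library, ALB among them. Their summed level was 33.8 to 35.9 TPM, nearly all of it from RBP4 and VTN. The markers of other cells were also low, with a summed level of 6.41 to 7.50 TPM for 6 fibroblast genes, 9.88 to 11.6 TPM for 8 blood and immune genes and 1.47 to 1.88 TPM for 5 endothelial genes. Of these, 1 of the 6, 1 of the 8 and 1 of the 5 had at least 1 TPM in every library. The same was found for 2 of the 18 hepatocyte genes and for 59.5% of the protein-coding rows. The 15 housekeeping genes of a further list all had at least 10 TPM in every library. By this check the hepatocyte genes did not bear out the labelled cell type, and the label was kept as given. The levels below therefore hold for the libraries labelled HepG2 and may not stand for HepG2 cells elsewhere. The reason for the low hepatocyte genes was not tested.

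The genome around the start of each gene is given first, because the 7 genes, chosen by name, differ in it. RefSeq windows for GRCh38.p14 were found for all 7 genes. The 250 bases before the start site nearest to the start of the deposited row are shown for the member with the highest level, for both arginases and for the member listed at 0 in every library. All 4 genes lie on the plus strand, and capitals mark each CG dinucleotide.

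ASS1, chr9:130444457-130444706: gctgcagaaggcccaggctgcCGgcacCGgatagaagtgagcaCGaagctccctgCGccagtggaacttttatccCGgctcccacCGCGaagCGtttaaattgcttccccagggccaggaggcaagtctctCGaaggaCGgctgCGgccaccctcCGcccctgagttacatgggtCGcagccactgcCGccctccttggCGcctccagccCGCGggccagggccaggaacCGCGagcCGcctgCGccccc

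ARG2, chr14:67619670-67619919: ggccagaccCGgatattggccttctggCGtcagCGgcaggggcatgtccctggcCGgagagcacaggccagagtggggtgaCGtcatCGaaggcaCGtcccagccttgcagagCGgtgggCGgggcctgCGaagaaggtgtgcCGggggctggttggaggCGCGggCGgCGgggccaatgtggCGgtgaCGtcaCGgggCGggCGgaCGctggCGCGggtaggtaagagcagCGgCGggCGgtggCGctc

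ARG1, chr6:131572976-131573225: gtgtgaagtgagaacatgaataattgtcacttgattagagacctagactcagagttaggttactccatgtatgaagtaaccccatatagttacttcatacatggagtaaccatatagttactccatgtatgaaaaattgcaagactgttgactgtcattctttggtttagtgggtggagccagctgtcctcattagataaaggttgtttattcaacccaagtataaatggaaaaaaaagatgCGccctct

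OTC, chrX:38352354-38352603: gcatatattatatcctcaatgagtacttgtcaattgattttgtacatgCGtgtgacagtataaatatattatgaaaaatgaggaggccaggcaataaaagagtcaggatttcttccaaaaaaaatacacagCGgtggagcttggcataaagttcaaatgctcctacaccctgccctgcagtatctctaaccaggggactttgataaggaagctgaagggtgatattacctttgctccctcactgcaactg

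The ASS1 stretch held 21 CG dinucleotides and the ARG2 stretch 27, against 1 for ARG1 and 2 for OTC. The median over all 35116 RefSeq windows was 11. Of all windows, 69.8% had fewer than ASS1 and 82.3% had fewer than ARG2, while 6.06% had fewer than ARG1 and 14.7% fewer than OTC. Of the other members, ASL had 22 and NAGS 13. The CPS1 stretch before the start of its deposited row held 1. The start of the main annotated CPS1 transcript in GENCODE v44 lies further along the gene, at 210556599, and no window was available for it. The main ASS1 transcript also starts further along, at 130444961, past the stretch shown. RefSeq windows of 300 bases at the ASS1 start used here and at 130444961 each held 29 CG dinucleotides. The letters TATAAA, searched on both strands, were found in the stretches of ARG1 and OTC and in 10.7% of all stretches. In ARG1 the match began 29 bases before the start site and in OTC 192 bases before it. By the levels given below, ASS1 and ASL, with 21 and 22 CG dinucleotides, were the highest member and a member with a mean of 20.8 TPM. ARG1 and OTC, with 1 and 2, were at or near 0 TPM. ARG2, with the most at 27, and NAGS, with 13, were both below 1 TPM. CPS1 had no window at its main start. RefSeq windows of 300 bases at its other starts, 210477685, 210519718 and 210593355, held 1, 3 and 3 CG dinucleotides. The median over all such windows was 14. With few CG dinucleotides in each of these windows, CPS1 still had a mean of 26.6 TPM, unlike ARG1 and OTC. Whether the levels go with this feature was not tested, because the members are too few.

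ASS1, the gene for argininosuccinate synthetase, was by far the highest of the cycle, followed by CPS1 and ASL at about the same level as each other. ARG2 and NAGS were below 1 TPM, and OTC and ARG1 were at or near 0. Thus 3 of the 7 genes reached 1 TPM in all libraries, and those 3 also had at least 10 TPM, which 40.4% of the protein-coding rows had. Among all 18739 protein-coding rows the share with at least 1 TPM in every library was 59.5%, against 42.9% of the members. The median of the members' mean levels was 0.588 TPM, against 4.99 TPM over the protein-coding rows. In a bulk culture, fewer cells that make an RNA and less of it per cell cannot be told apart.

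**Figure D1:**
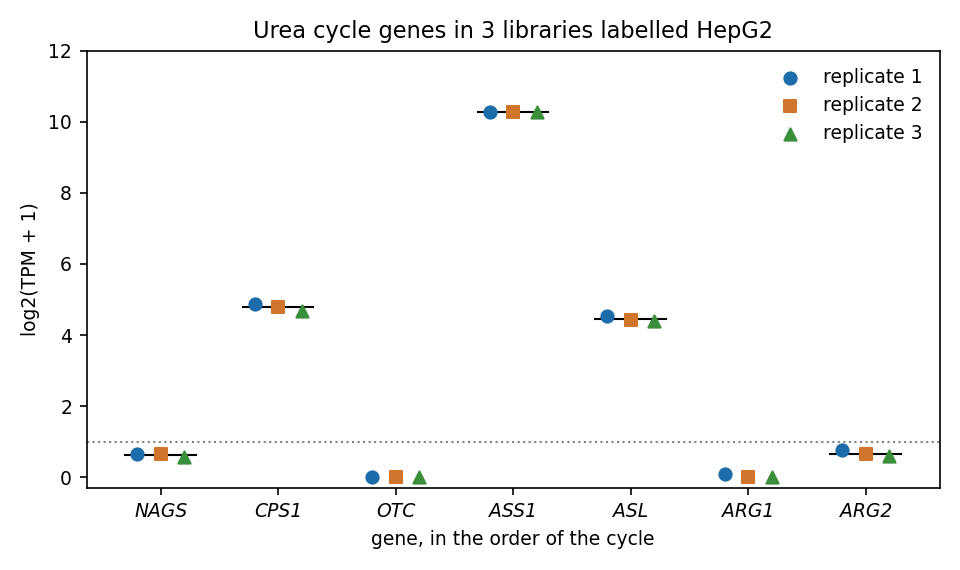
The level of each urea cycle gene as log2(TPM + 1) on the vertical axis, with genes in the order of the cycle on the horizontal axis, points for the 3 libraries labelled HepG2, black bars for the mean of the log2 values of genes above 0 in every library and a dotted line at 1 TPM. ASS1 stands at 1230.4 to 1239.6 TPM, CPS1 and ASL lie between 19.9 and 28.5 TPM, and NAGS, OTC, ARG1 and ARG2 lie below the line.

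NAGS makes N-acetylglutamate, the activator that CPS1 needs. Its row spans 44004546 to 44009068 on chromosome 17 of GRCh38. NAGS had 0.568, 0.581 and 0.470 TPM in replicates 1, 2 and 3, a mean of 0.540 ± 0.0610 TPM (SD, n = 3). All 3 values lay below 1 TPM, and the coverage was 2.20 to 3.05. The mean was above that of 36.8% of the protein-coding rows.

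CPS1 makes carbamoyl phosphate from ammonia in the mitochondrion, the entry step of the cycle. Its row is the longest of the 7 and spans 201426 bp on chromosome 2, from 210477682 to 210679107. CPS1 had 28.5, 26.7 and 24.4 TPM in replicates 1, 2 and 3, a mean of 26.6 ± 2.05 TPM (SD, n = 3). Its mean exceeded that of 75.2% of the protein-coding rows. The coefficient of variation was 7.71%, against a median of 5.60% over the 11312 protein-coding rows with a mean of at least 1 TPM. CPS1-IT1, a noncoding transcript inside an intron of CPS1 on the same strand, had 0.553, 0.458 and 0.308 TPM.

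OTC joins carbamoyl phosphate to ornithine to give citrulline and is the next mitochondrial step. Its row spans 38352528 to 38421446 on chromosome X. OTC was listed at 0 TPM, 0 FPKM and 0 coverage in all 3 libraries. Of the protein-coding rows, 20.0% were listed at 0 in every library, and OTC was the only member among them. How small a level these reads could have shown is not known.

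ASS1 joins citrulline to aspartate in the cytosol. Its row spans 130444707 to 130501274 on chromosome 9, and its main annotated transcript in GENCODE v44 has 15 exons and 1532 nt. ASS1 had 1239.6, 1238 and 1230.4 TPM in replicates 1, 2 and 3, a mean of 1236 ± 4.97 TPM (SD, n = 3). It ranked 87th of the 18739 protein-coding rows by mean TPM and exceeded 99.5% of them. Its coefficient of variation of 0.402% was lower than that of CPS1 and ASL. The rows with the most similar levels over the 3 libraries, by Euclidean distance in log2(TPM + 1), were PSMA7, CFL1 and PPIA, at distances of 0.0668, 0.0819 and 0.104. These encode a proteasome subunit, an actin-binding protein and a peptidyl-prolyl isomerase, and they had means of 1250.5 TPM, 1275 TPM and 1189 TPM. With 1 condition, this likeness is one of level and not of a pattern across conditions.

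ASL cleaves argininosuccinate, the product of ASS1, into arginine and fumarate. Its row spans 66075789 to 66093343 on chromosome 7. ASL had 22.1, 20.3 and 19.9 TPM in replicates 1, 2 and 3, a mean of 20.8 ± 1.18 TPM (SD, n = 3). Each TPM value was below the lowest of CPS1, and the mean exceeded that of 70.9% of the protein-coding rows.

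Arginine is split by 2 arginases, the cytosolic ARG1 of hepatocytes and the mitochondrial ARG2, which is known from kidney and other tissues. ARG1 spans 131573159 to 131584332 on chromosome 6 and had 0.0724, 0 and 0 TPM in replicates 1, 2 and 3. Only replicate 1 gave a value above 0, with a coverage of 0.441. ARG2 spans 67619920 to 67651708 on chromosome 14 and had 0.684, 0.563 and 0.517 TPM, a mean of 0.588 ± 0.0862 TPM (SD, n = 3). ARG2 was higher than ARG1 in each of the 3 libraries and the values did not overlap, while both stayed below 1 TPM. No fold is given for ARG1 or OTC because they were listed at 0 in at least 2 libraries.

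**Figure D2:**
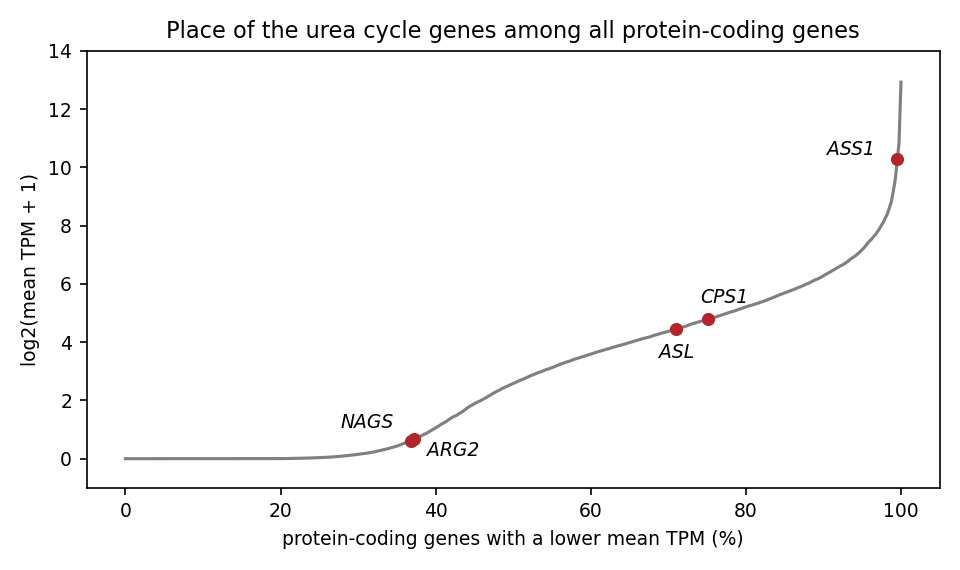
The level of protein-coding rows as log2(mean TPM + 1) on the vertical axis against the percentage of such rows with a lower mean on the horizontal axis, with red points for the 5 urea cycle genes above 0 in every library. ASS1 lies above 99.5% of the rows, CPS1 above 75.2%, ASL above 70.9%, ARG2 above 37.2% and NAGS above 36.8%.

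The 5 genes with a value above 0 in every library gave 10 pairs, which were compared within each library by the ratio of TPM, with tests on the log2(TPM + 1) scale. ASS1 was 43.4, 46.3 and 50.3 times as high as CPS1 by TPM in replicates 1, 2 and 3, and 56.1, 60.9 and 62.0 times as high as ASL, which acts directly after it. CPS1 was 1.29, 1.32 and 1.23 times as high as ASL by TPM, a log2 ratio of 0.34 ± 0.05 (SD, n = 3). CPS1 was 41.7 to 47.5 times as high as ARG2 and 46.0 to 52.0 times as high as NAGS. In 9 of the 10 pairs the same gene was higher in 3 of 3 libraries and the TPM values did not overlap. For CPS1 and ASL the lack of overlap held by TPM and FPKM but not by coverage. With TPM recomputed from coverage CPS1 had 20.1 to 23.5 and ASL 18.8 to 20.9 TPM, which overlap, and the log2 ratio by coverage was 0.15. The exception among the 10 by TPM was the neighbouring pair of ARG2 and NAGS, whose log2 ratio of 0.04 ± 0.06 (SD, n = 3) was smaller than its spread and changed direction in replicate 2. By coverage ARG2 was 1.41, 1.13 and 1.29 times as high as NAGS, higher in 3 of 3 libraries. The mean log2 ratio was above 0 by both columns, and only the direction in replicate 2 depended on the column. By an exact permutation test that flips the signs of the log2 ratios (two-sided), p was 0.25 for each of these 9 pairs, the lowest value 3 libraries can give, and 0.5 for ARG2 and NAGS. After Benjamini-Hochberg adjustment over the 10 pairs the exact test gave 0.278 and 0.5, so no pair could pass a threshold of 0.05 in this design. From the highest level to the lowest the order by TPM was ASS1, CPS1, ASL, then ARG2 and NAGS without a clear order between them, then ARG1 and OTC.

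The level of ASS1 depended on the column used. Within a library FPKM and TPM are proportional, but coverage is not, and the ratio of coverage to FPKM of a gene can be set against the highest ratio in its library. This relative ratio was 0.253, 0.253 and 0.251 for ASS1, and 0.823 in each library for CPS1. It was 0.945 to 0.951 for ASL, 0.850 to 0.853 for NAGS and 1.00 for ARG2. The median over the protein-coding rows averaging 1 TPM or more was 0.765, with 14.9% of them at or below ASS1. By coverage ASS1 was 13.4, 14.2 and 15.4 times as high as CPS1 and 15.0, 16.2 and 16.4 times as high as ASL. TPM recomputed from coverage was not rescaled to the TPM total, so for rows above 1 FPKM it cannot exceed the deposited TPM. On this scale ASS1 had 314, 313 and 309 TPM, or 312 ± 2.41 TPM (SD, n = 3). It stayed the highest of the 7 genes, and CPS1 and ASL had means of 21.9 and 19.7 TPM. By coverage ASS1 still exceeded 98.6% of the protein-coding rows. The tables give 1 value per gene, so single transcripts were not analysed here, and the cause of the difference between the columns was not tested.

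**Figure D3:**
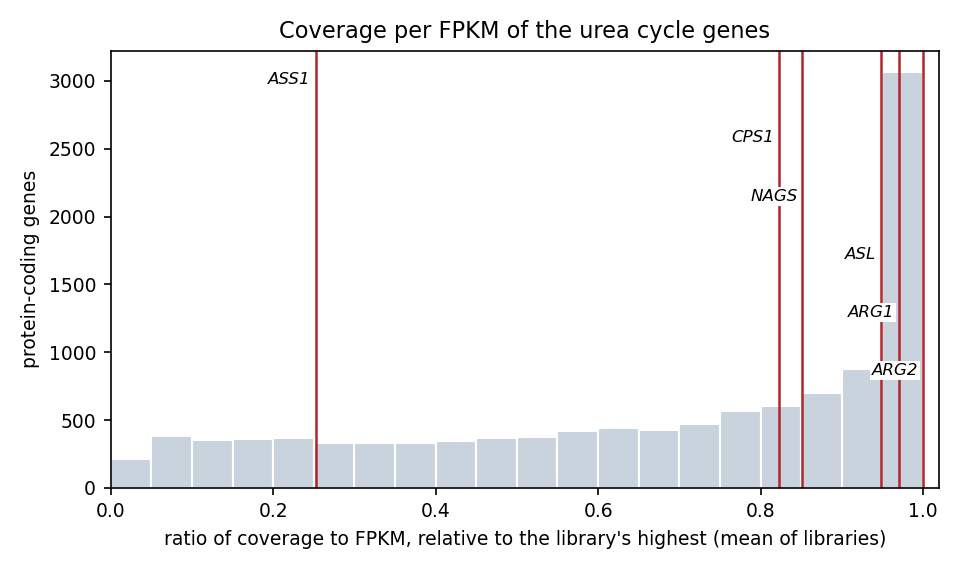
The number of protein-coding rows with a mean of at least 1 TPM (bars) by their ratio of coverage to FPKM relative to the highest ratio in the library, averaged over the libraries with a value, with red lines for the urea cycle genes with a value above 0 (ARG1 in replicate 1 only). ASS1 lies at 0.252, far to the left of CPS1 at 0.823 and of the other members.

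ASS1 is also the member with the most near copies in the genome. RefSeq lists 14 ASS1 pseudogenes on GRCh38.p14, on chromosomes 2, 3, 4, 5, 6, 7, 9, 11, 12, X and Y, and none of these had a row among those used here. Aligned to the main ASS1 transcript, they were 87.9% to 94.2% identical over the aligned part. The most similar copy was ASS1P9, at 53859064 to 53860632 on chromosome 5. None of the 1383 stretches of 150 bases in that transcript, the length of 1 read, was found letter for letter in any of the 14 copies. The same held for ASL and its copy ASLP1, with 82.0% identity, and for ARG2 and its copy ARG2P1, with 80.4% identity. With identities of at most 94.2%, exact matches of this length were unlikely from the outset. The search therefore cannot show where reads of these genes were mapped. How the authors' mapping treated reads that differ from the reference, or reads of another length after trimming, was not tested, so the ASS1 level is given with this limit.

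Of the 7 rows, 4 overlap other rows, and the strand setting of the quantification is not named. In ARG2, 4624 bp of its 3′ end overlap VTI1B, a vesicle transport gene on the opposite strand with 30.1, 29.6 and 28.7 TPM. In GENCODE v44 the main transcripts of both genes share 904 of the 1911 exon bases of ARG2, and reads from this region cannot be told apart without strand. The coverage of ARG2 was 2.84 to 4.29, against 158 to 189 for VTI1B. ARG2 also lies inside the span of GPHN on the same strand, with 15.2 to 16.8 TPM, and shares 0 exon bases with it. ARG1 overlaps MED23, a Mediator gene on the opposite strand with 8.20 to 9.16 TPM, over 10367 bp, and also shares 0 exon bases with its annotated exons. ASS1 overlaps the noncoding row LOC105376294 on the opposite strand over 10618 bp, and that row had 10.6 to 11.1 TPM. The part of these overlaps in the members' levels was not tested.

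**Figure D4:**
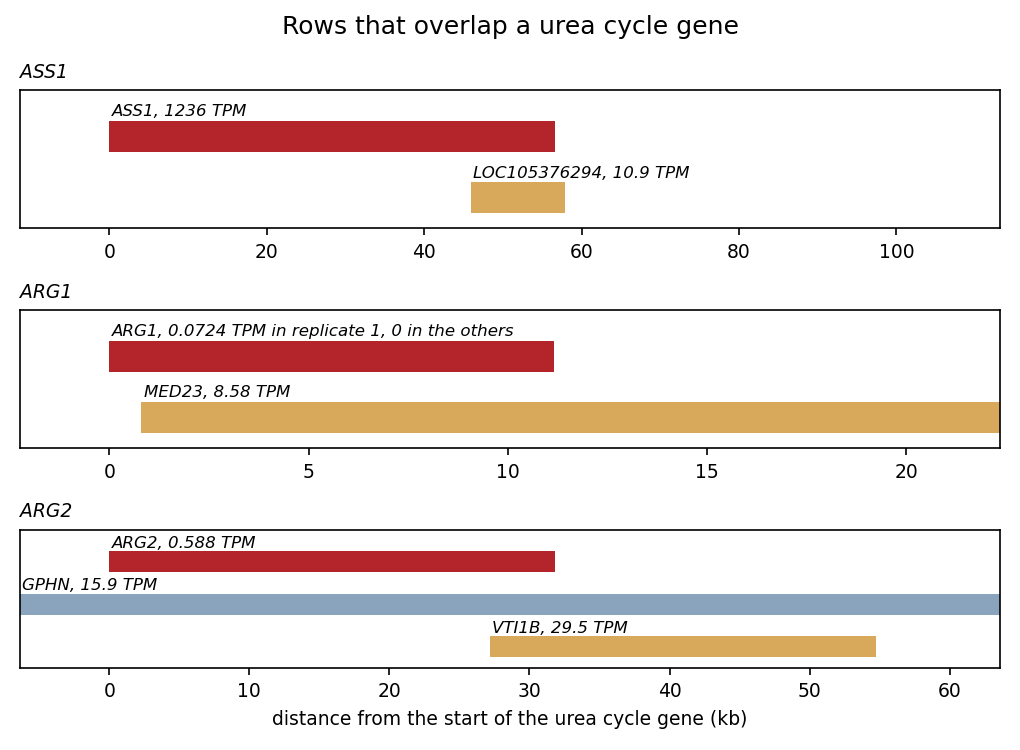
Maps of the deposited rows of ASS1, ARG1 and ARG2 (red) with the rows that overlap them on the same strand (blue) or the opposite strand (yellow), drawn to scale in kb from the start of each urea cycle gene and labelled with the mean TPM over 3 libraries, except ARG1; rows that run past the edge are cut off. VTI1B covers the 3′ end of ARG2 and had 29.5 TPM against 0.588 TPM for ARG2.

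The genes around the cycle were described from 5 lists with 51 genes in all, of which 35, or 68.6%, had at least 1 TPM in every library, against 59.5% of the protein-coding rows. The genes that supply ammonia and carbamoyl phosphate numbered 9, and 5 of them had at least 1 TPM in every library. GLUD1, which releases ammonia from glutamate in mitochondria, had 138 ± 13.6 TPM (SD, n = 3). GLUL, which binds ammonia into glutamine, had 66.0 ± 0.823 TPM (SD, n = 3). CA5A, a mitochondrial carbonic anhydrase that provides bicarbonate for CPS1, was listed at 0 in all 3 libraries. Its relative CA5B had 0.851, 1.81 and 2.26 TPM, with replicate 1 alone below 1 TPM, but 0.256, 0.335 and 0.714 TPM when recomputed from coverage. CAD makes carbamoyl phosphate in the cytosol for pyrimidines, and it had 71.7 ± 2.93 TPM (SD, n = 3), 2.61 to 2.81 times the TPM of CPS1 in the same library. SIRT5, a mitochondrial deacylase known to act on CPS1, had 3.09 ± 0.0434 TPM (SD, n = 3), or 0.865 TPM when recomputed from coverage.

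Of the 6 mitochondrial carriers, 5 had at least 10 TPM in every library, against 40.4% of the protein-coding rows. SLC25A15, which exchanges ornithine for citrulline, had 15.3, 13.6 and 13.3 TPM, which is 0.510 to 0.545 times the TPM of CPS1. Its relative SLC25A2 had 0, 0.0846 and 0.202 TPM, below SLC25A15 in every library. SLC25A13 and SLC25A12 bring aspartate out of the mitochondrion for ASS1. SLC25A13, the form known from liver, had 37.5 ± 2.65 TPM (SD, n = 3), and SLC25A12 had 11.3 ± 0.765 TPM (SD, n = 3). The values did not overlap, and SLC25A13 was 3.00 to 3.64 times as high by TPM.

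All 6 genes of aspartate and fumarate recycling had at least 10 TPM in every library, against 40.4% of the protein-coding rows. Their median was 193 TPM, against 4.99 TPM over the protein-coding rows. This median is by TPM, and MDH1, with 213 ± 13.9 TPM (SD, n = 3), had 39.5 TPM when recomputed from coverage. FH, which hydrates the fumarate that ASL releases, had 239 ± 12.1 TPM (SD, n = 3). FH was 11.4 to 11.7 times as high as ASL by TPM and 9.32 to 9.64 times as high by coverage. GOT2, the mitochondrial enzyme that makes aspartate, had 174 ± 11.3 TPM (SD, n = 3), and its cytosolic relative GOT1 had 68.6 ± 0.251 TPM (SD, n = 3). These levels stand beside an ASS1 level that was higher than each of them by TPM.

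Of the 20 genes that make or use arginine and ornithine, 15 had at least 1 TPM in every library, against 59.5% of the protein-coding rows. Their median was 40.6 TPM, against 4.99 TPM over the protein-coding rows. ODC1, which turns ornithine into putrescine, had 244, 220 and 227 TPM. OAT, which links ornithine to proline and glutamate, had 48.1, 44.4 and 60.3 TPM, with replicate 3 above the others, and a mean of 16.0 TPM when recomputed from coverage. ODC1 was 3.77 to 5.09 times as high as OAT by TPM and 10.9 to 11.4 times as high by coverage. OAZ1, the antizyme that limits ODC1, had 478 ± 18.1 TPM (SD, n = 3), and the spermidine synthase SRM had 292 ± 11.0 TPM (SD, n = 3). ALDH18A1 and PYCR1, which make proline from glutamate, had 95.1 ± 3.90 and 107 ± 5.78 TPM (SD, n = 3). AGMAT, known for a ureohydrolase fold like that of the arginases, had 39.0 ± 1.15 TPM (SD, n = 3) and was higher than ARG1 and ARG2 in every library. The nitric oxide synthases NOS1, NOS2 and NOS3, which use arginine, were at 0 to 0.0858 TPM. GATM, which starts creatine synthesis from arginine, was listed at 0, 0.0547 and 0 TPM, while GAMT, the next step, had 28.4 ± 1.03 TPM (SD, n = 3), or 15.0 TPM when recomputed from coverage.

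**Figure D5:**
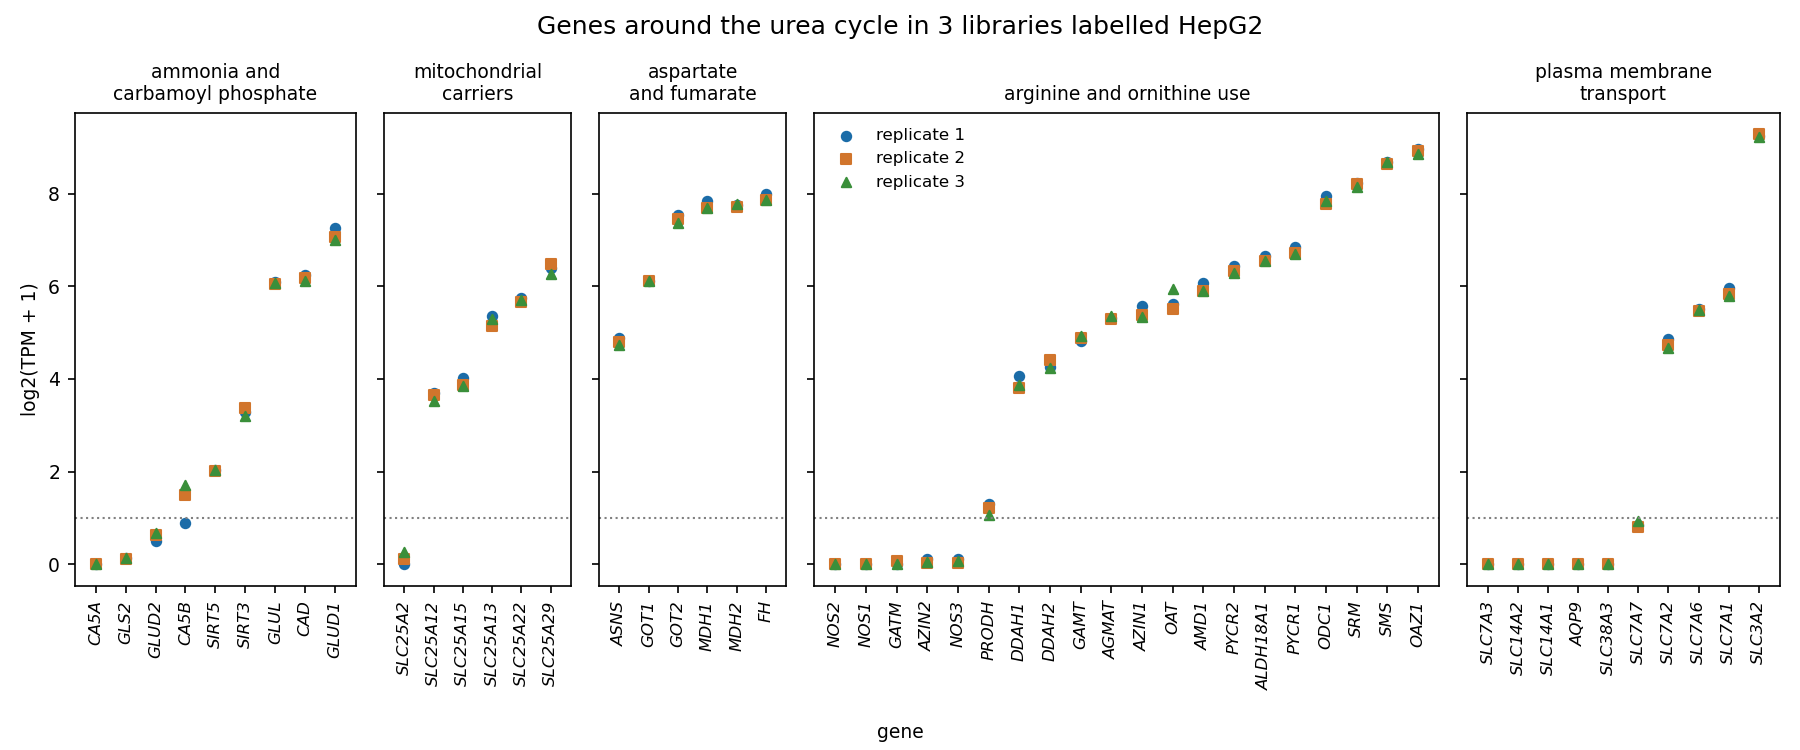
The level as log2(TPM + 1) of the 51 genes around the urea cycle in 5 lists, ordered by mean within each list, with points for the 3 libraries labelled HepG2 and a dotted line at 1 TPM. All 6 genes of aspartate and fumarate recycling lie above the line, and 5 of the 10 transport genes lie at 0.

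Of the 10 transport genes, 4 reached 1 TPM in every library and 5 were listed at 0 in all 3, against 59.5% and 20.0% of the protein-coding rows. The cationic amino acid transporter SLC7A1, which takes up arginine, had 57.4 ± 3.94 TPM (SD, n = 3). Its relative SLC7A2, known from liver, had 26.0 ± 1.87 TPM (SD, n = 3), but only 3.40 TPM when recomputed from coverage. SLC3A2, the heavy chain that pairs with several amino acid transporters, had 607 ± 10.3 TPM (SD, n = 3). The urea transporters SLC14A1 and SLC14A2, the channel AQP9, which passes urea in hepatocytes, the glutamine transporter SLC38A3 and SLC7A3 were listed at 0.

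The spread between libraries differed among the members. The range of log2(TPM + 1) over the 3 libraries was 0.22 for CPS1, 0.15 for ASL and 0.01 for ASS1, against a median of 0.14 over the protein-coding rows with a mean of at least 1 TPM. Thus ASS1 lay below the median and the others above it. The coefficient of variation of ASL was 5.68%, near the median of 5.60%, while it was 11.3% for NAGS and 14.7% for ARG2, which lie below the 1 TPM limit of the rows behind that median. A range above 1 was found in 0.389% of those rows and in 0 of these 3 members, a count too small to set the members apart. The summed TPM of the 7 genes was 1276 to 1292, nearly all of it ASS1.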

How the data were processed

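RNA-seq of 3 libraries labelled HepG2 was analysed. Per the paper's methods and the submitters' processing notes, the authors filtered reads with FastQC 0.11.8 and Trim Galore 0.6.2 and mapped them to GRCh38 with STAR 2.6.1a, and StringTie is named without a version or role. The annotation and strand setting are not given in the sources used here. The TPM deposited by the authors share 1 total across libraries, the FPKM deposited by the authors are proportional to them, and the coverage deposited by the authors is not scaled for library size. TPM and FPKM carry no depth.

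Rows were joined by name, strand and coordinates, and rows on alternate, patch or unplaced references were left out, which held no member. Protein-coding rows were those whose symbol RefSeq lists as such. RefSeq listed 34973 of the 39266 row names. Ratios were tested on log2(TPM + 1), a scale that understates ratios of low genes, by an exact sign-flip permutation test. For TPM recomputed from coverage, the coverage was divided by the highest ratio of coverage to FPKM among rows above 1 FPKM and multiplied by the TPM per FPKM of the library. The result was not rescaled to the TPM total, so by construction these rows can only keep their TPM or fall below it. Leaving out replicates and other pseudocounts, scalings, limits and columns were tried. The members and lists were chosen with earlier results of these data known, and 1 gene of the lists is not reported here. The rule for named genes took the members, the genes of the 5 lists, some of which appear in a plot alone, the rows that overlap members or are named after them, and the 3 rows most like ASS1. ALB, RBP4 and VTN, from the list of secreted proteins, fall outside it and were named after their values were seen. Calculations used Python 3.11.15, numpy 2.4.6, pandas 2.3.3, Biopython 1.88 and matplotlib 3.10.9, and the range calculation was tested on simulated data.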

Additional observations from a re-analysis of the deposited data

How the results depend on the processing

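No paired analysis was possible because only 1 condition was sequenced. Scaling without the mitochondrially encoded rows, which took 19.9% to 20.2% of all TPM, raised the means to 33.3 TPM for CPS1, 1547 TPM for ASS1, 26.0 TPM for ASL, 0.735 TPM for ARG2 and 0.676 TPM for NAGS, because it removes a similar share from each library. Recomputing TPM from coverage was an alternative chosen after the data were seen, and its values were not rescaled to the TPM total. It gave 21.9 TPM for CPS1, 312 TPM for ASS1 and 0.460 TPM for NAGS, and moved the means of ASL and ARG2 by less than 1 SD. With a limit of 0.1 TPM, or of any value above 0, 5 of the 7 genes were counted as expressed in place of 3, while a limit of 10 TPM left 3. The number of genes around the cycle with at least 1 TPM was 35. It was 34 to 36 by coverage, without mitochondrially encoded rows or with a replicate left out. With limits of 10 TPM and 0.1 TPM in place of 1 TPM, the counts were 32 and 38. With each replicate left out, the widest range of log2(TPM + 1) among CPS1, ASS1 and ASL was 0.11 to 0.22, against 0.22 with all 3, and fewer libraries can only lower a range. No log2 ratio of the 10 pairs changed direction with FPKM, with coverage, with a pseudocount of 0.1 or with any replicate left out. That of ASS1 to CPS1 fell from 5.49 to 3.83 by coverage, and the cause was not tested. The other alternatives moved no mean by more than 1 SD. How low a level these libraries can show for genes listed at 0 is not known.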

Other observations

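A value of 0 was written in 2 ways in the tables, as 0.0 and as 0.000000. Of the 43389 joined rows, 12336, 11912 and 12186 were written as 0.0 in replicates 1, 2 and 3, and 10084, 10403 and 10623 as 0.000000. OTC was written as 0.0 in all 3 libraries, while ARG1 was written as 0.000000 in replicates 2 and 3. What the 2 ways stand for is not given in the sources used here.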
